A study of Mus musculus with 48 samples.

Results

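The genes described here mark the GABAergic interneurons of the cortex. They are Gad1, Gad2, Slc32a1, Pvalb, Sst, Vip, Npy, Cck, Calb2 and Reln, a list of gene names, and all 10 were found among the 34844 gene names of the array, on 12 of its 55681 probes. Slc32a1 and Pvalb have 2 probes each and the others have 1. RNA was measured in the medial prefrontal cortex (mPFC) of 17-week-old female C57BL/6J mice on 24 one-colour Agilent arrays, 1 per mouse and 6 per group. Control mice had a sham operation and no stress. CUMS mice had a sham operation and chronic ultra-mild stress, a weekly schedule of mild stressors such as cage tilt, a soiled cage and lights left on at night. OVX mice had both ovaries removed and no stress, and OVX+CUMS mice had both treatments. All operations, sham operations included, were done under pentobarbital anaesthesia. Whole blood of the same mice was measured on 24 more arrays and is used only to ask where the genes were detected.

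GABA, the main inhibitory transmitter of the cortex, is made from glutamate by the glutamate decarboxylases Gad1 and Gad2 and loaded into synaptic vesicles by the transporter Slc32a1, so that all GABAergic neurons carry these genes. The other members divide the interneurons into classes. Parvalbumin (Pvalb), a calcium-binding protein, marks fast-spiking basket and chandelier cells, and somatostatin (Sst) marks cells that contact distal dendrites, some of which also make neuropeptide Y (Npy). Vasoactive intestinal peptide (Vip) and calretinin (Calb2) mark cells that mostly inhibit other interneurons. Cholecystokinin (Cck) marks another class of basket cells but is also made by many cortical pyramidal cells, and reelin (Reln), a secreted glycoprotein, marks neurogliaform and other interneurons of the superficial layer. In pieces of tissue such as these, fewer cells of a class and less RNA per cell cannot be told apart.

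Each probe is a 60-base oligonucleotide designed on 1 transcript. The results below rest on single probes or on the comparison of probes of the same gene, so the first 30 bases of those probes are shown, in the sense of the transcript.
Slc32a1, brighter probe: aaactcatcttgtgcaatgtatccggtcgt
Slc32a1, dimmer probe: aattccactgcatgatgaactggacacaca
Pvalb, brighter probe: agtttgtttgtgttattttttactccccca
Pvalb, dimmer probe: ctccaatgacactctatcaattgcttttga
Cck: cttcagtgactcccagacctaatgttgcta
Sst: aagacattcacatcctgttagctttaatat
In the mm9 coordinates of the array files, the brighter Slc32a1 probe lies at chr2:158441324-158441383 on the plus strand, from base 2645 of its transcript, and the dimmer one at chr2:158440166-158440225, from base 1487. The Pvalb probes lie at chr15:78021951-78022010 and chr15:78021549-78021608 on the minus strand, from bases 440 and 842 of the transcript. The Cck probe lies at chr9:121398943-121399002 and the Sst probe at chr16:23889776-23889835, both on the minus strand. The Npy probe spans chr6:49773743-49777505, 3763 bases of genome for 60 bases of probe, and so bridges an intron. The array files do not say which bases of a transcript are coding. The Sst probe is printed 10 times on each array, and the others once.

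Levels are given on the log2 scale as the background-subtracted signal of a probe less the 75th percentile of its array, so that a value of 1 is a signal 2-fold above that percentile. Levels of different probes are not set against each other, because probes differ in how strongly they bind. In mPFC all 12 probes were well above background on all 24 arrays and passed the detection filter, which 28358 probes passed in all. A probe was called when its Benjamini-Hochberg adjusted p, over all 28358 probes, was under 0.05 in a limma fit with surgery, stress and their interaction. Of the markers of other cells, 9 of 9 excitatory neuron genes, 8 of 8 pan-neuronal, 7 of 7 astrocyte, 7 of 7 oligodendrocyte, 7 of 7 microglia and 5 of 5 endothelial genes were detected, as were 8 of 8 genes that mark the striatum.

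The arrays were hybridised 8 to a slide, and the slides follow the groups. Slide 1 held the 6 control arrays and CUMS replicates 1 and 2, slide 2 held the other 4 CUMS arrays and OVX replicates 1 to 4, and slide 3 held OVX replicates 5 and 6 and the 6 OVX+CUMS arrays. Slide 2 alone holds both sham-operated and OVX mice, and those differ in stress as well, so surgery and slide cannot be told apart for any member. Among CUMS mice, which all had the same treatment, 4601 of the 28358 probes (16.2%) were called between slides 2 and 1, against 121 (0.427%) between slides 3 and 2 among OVX mice. No member was called in either comparison. Without adjustment, p was under 0.05 for 4 of the 12 member probes between the CUMS slides and for 0 between the OVX slides, beside 34.5% and 12.3% of all probes.

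**Figure D1:**
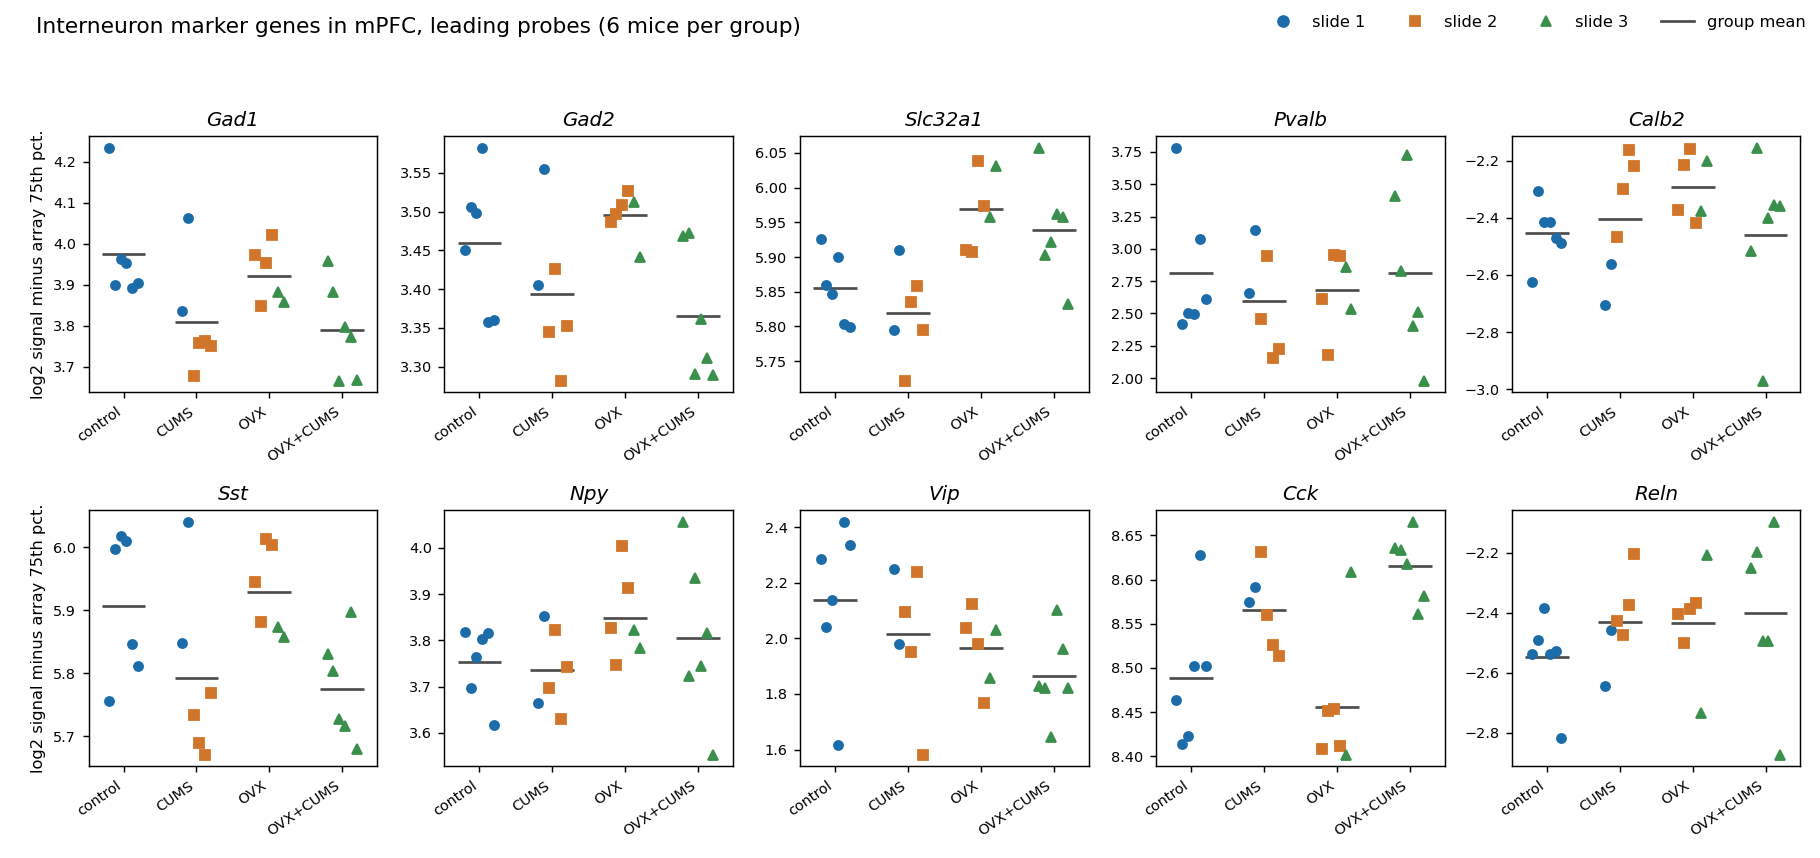
Level of the leading (brightest) probe of each gene on the 24 mPFC arrays, as log2 signal minus the 75th percentile of the array; each point is 1 mouse, marked by slide, and the bar is the group mean. The OVX points of Slc32a1 lie at 5.91 to 6.04, the OVX points of Cck lie below every stressed array except for 1, and Pvalb spreads over more than 1 log2 unit in the control and OVX+CUMS groups.

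Of the 2 decarboxylases, neither was called for any effect. The level of Gad1 had a lowest, median and highest value of 3.89, 3.93 and 4.23 in the controls, 3.68, 3.76 and 4.06 under CUMS, 3.85, 3.92 and 4.02 after OVX, and 3.67, 3.79 and 3.96 after OVX with CUMS. The medians of both stressed groups lay below the lowest value of their unstressed counterparts, although the ranges overlapped. The CUMS effect on Gad1, the mean over both surgeries, was a log2 difference of -0.15 ± 0.05 (SE; 95% interval -0.25 to -0.05), with an adjusted p of 0.0696. Gad2 had a lowest, median and highest value of 3.36, 3.47 and 3.58 in the controls and 3.28, 3.38 and 3.56 under CUMS. After OVX these values were 3.44, 3.50 and 3.53, and after OVX with CUMS 3.29, 3.34 and 3.47. The CUMS effect on Gad2 was -0.10 ± 0.03 with an adjusted p of 0.0973, and its OVX effect had an interval of -0.07 to 0.08.

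The CUMS mice were spread over 2 slides. CUMS replicates 1 and 2, on slide 1 with the controls, had a mean Gad1 level of 3.95, against 3.97 in the 6 controls of that slide and 3.74 in the 4 CUMS arrays of slide 2. Between these slides the CUMS mice differed by -0.21 for Gad1 (interval -0.40 to -0.02, adjusted p 0.114) and by -0.13 for Gad2 (interval -0.30 to 0.05, adjusted p 0.257). Within slide 1, CUMS less control was -0.02 for Gad1 (interval -0.27 to 0.22) and 0.02 for Gad2 (interval -0.16 to 0.20). Within slide 3, OVX+CUMS less OVX was -0.08 for Gad1 and -0.11 for Gad2, with intervals of -0.29 to 0.13 and -0.30 to 0.07. Over all probes 0.0% were called within slide 1 and 0.0% within slide 3, where 1423 and 583 probes had an unadjusted p under 0.05. Without CUMS replicate 2, the CUMS effects of Gad1, Gad2 and Sst were called, with adjusted p of 0.0128, 0.0284 and 0.012. That fit left CUMS replicate 1 as the only CUMS array on slide 1 with the controls. The share of all probes called in that fit is not given here. With slide as a block in the fit, the CUMS effect on Gad1 was -0.05 and its adjusted p 0.919.

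Slc32a1, the vesicular transporter, was the 1 member called for OVX. Its brighter probe had a lowest, median and highest level of 5.80, 5.85 and 5.93 in the controls, 5.72, 5.82 and 5.91 under CUMS, 5.91, 5.97 and 6.04 after OVX, and 5.83, 5.94 and 6.06 after OVX with CUMS. The lowest OVX array lay just below the highest control array, and the groups overlapped between 5.83, the lowest ovariectomized array, and 5.93, the highest sham-operated one. The OVX effect was a log2 difference of 0.12 ± 0.03 (SE; interval 0.06 to 0.18), a 1.08-fold higher level, with an adjusted p of 0.00479. Before any scaling between arrays, the mean signal of this probe was 37700 in the controls and 35100 under CUMS. It was 38400 after OVX and 37100 after OVX with CUMS, and the part of the scaling in the OVX effect was not tested. Over all probes, 30.9% were called for OVX, so that 1 of 12 member probes is a lower share than the background. The dimmer probe of the gene, read from a signal of 191 to 354, differed by 0.10 ± 0.06 and was not called (adjusted p 0.235). The call was kept with each array left out in turn (adjusted p 0.0022 to 0.00974) and was lost with normexp background correction (adjusted p 0.0636), with quantile normalisation (0.119) and with slide as a block (0.782), under differences of 0.08, 0.07 and 0.13. No stress effect was called for it, with a difference of -0.03 ± 0.03.

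For the other 9 genes the OVX effect lay between a log2 difference of -0.16 for Vip and 0.08 for Npy. Vip had an interval of -0.34 to 0.01 and an adjusted p of 0.151, and Npy an interval of -0.02 to 0.18 and an adjusted p of 0.198. The median over the 10 leading probes was 0.02, against 0.04 over all probes. With normexp background correction Npy and Reln were called for OVX instead, at 0.14 and 0.14, and so were 9341 of all 28358 probes.

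**Figure D2:**
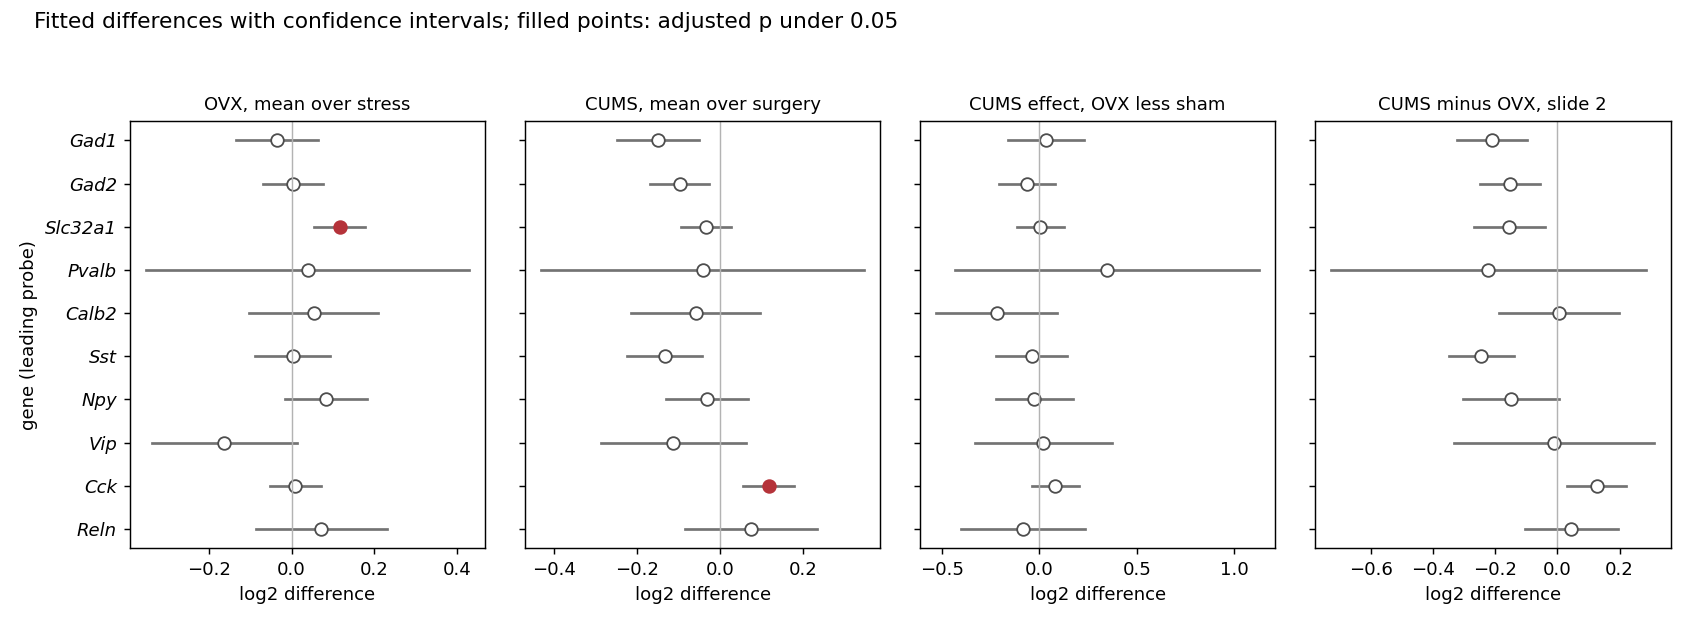
Fitted log2 differences of the 10 leading probes with their 95% intervals for OVX, CUMS, the interaction and the CUMS less OVX comparison within slide 2; filled points are called. Slc32a1 is filled for OVX and Cck for CUMS, no point is filled in the other panels, and the intervals of Pvalb are the widest.

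Cck was the 1 member called for CUMS. It had a lowest, median and highest level of 8.41, 8.48 and 8.63 in the controls and 8.51, 8.57 and 8.63 under CUMS. After OVX the values were 8.40, 8.43 and 8.61, and after OVX with CUMS 8.56, 8.63 and 8.66. After OVX 5 of the 6 arrays lay below every stressed array, and the exception was OVX replicate 6 at 8.61. The CUMS effect was 0.12 ± 0.03 (SE; interval 0.06 to 0.18), a 1.09-fold higher level, with an adjusted p of 0.0329. Before any scaling between arrays, the mean Cck signal was 234000 in the controls and 235000 under CUMS, in ranges of 225000 to 243200 and 225000 to 243700. It was 215000 after OVX and 237000 after OVX with CUMS. The part of the scaling in the Cck difference was not tested. Over all probes, 4.19% were called for CUMS, against 1 of 12 member probes. Within the slides the difference was 0.09 on slide 1 (CUMS less control, interval -0.07 to 0.25) and 0.11 on slide 3 (OVX+CUMS less OVX, interval -0.06 to 0.28), neither of which was called. The call was lost in 11 of the 24 fits that leave out 1 array, where the difference ranged from 0.11 to 0.13 and the adjusted p from 0.0166 to 0.0594. It was also lost with quantile normalisation, at a difference of 0.06 and an adjusted p of 0.239, with the percentile over detected probes, at 0.10 and 0.0534, with no detection filter, at 0.12 and 0.115, and with slide as a block, at 0.10 and 0.61. Of the 9 excitatory neuron genes, 2 were called higher and 1 lower for CUMS, with a median of 0.04, and their part in the Cck difference was not tested. Cck varied little between mice, with a residual SD of 0.0624 that was lower than in all but 2.8% of the detected probes.

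Sst, the peptide of dendrite-targeting interneurons, was not called for CUMS, at a difference of -0.13 ± 0.04 (SE; interval -0.22 to -0.04) and an adjusted p of 0.0741. Its lowest, median and highest levels were 5.76, 5.92 and 6.02 in the controls, 5.67, 5.75 and 6.04 under CUMS, 5.86, 5.91 and 6.01 after OVX, and 5.68, 5.77 and 5.90 after OVX with CUMS. The stressed groups had the lower medians, and the highest value of all groups was nevertheless a CUMS array, replicate 2 on slide 1. Within slide 1 the CUMS less control difference was 0.04 (interval -0.18 to 0.26), and within slide 3 the OVX+CUMS less OVX difference was -0.09 (interval -0.27 to 0.09). The 10 spots of Sst on an array had an SD of 0.0197 to 0.0626 on the log2 scale, below the SD of 0.104 between mice of a group.

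Npy, made by part of the Sst cells and by neurogliaform cells, had a CUMS effect of -0.03 ± 0.05 (interval -0.13 to 0.07). Its widest group was OVX+CUMS, at 3.55 to 4.06. Vip had a median of 2.21 in control, 2.04 in CUMS, 2.00 in OVX and 1.82 after OVX with CUMS, in ranges that all overlapped (1.62 to 2.42, 1.58 to 2.25, 1.77 to 2.12 and 1.65 to 2.10). Its CUMS effect of -0.11 had an interval of -0.29 to 0.06. The Vip probe is listed at chr10:4699238-4699297 on the minus strand of mm9, whereas the promoter table for GRCm38.p6 gives the gene on the plus strand, and this difference was not resolved here. Calb2 and Reln were dim, with signals of 73.0 to 143 and 81.2 to 139 against the minimum of 50. The CUMS effect was -0.06 for Calb2 (interval -0.21 to 0.10) and 0.08 for Reln (interval -0.08 to 0.23).

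The interaction, which is the CUMS effect among OVX mice less that among sham-operated mice, was called for 0 of the 12 member probes in limma. None had an unadjusted p under 0.05, as 23.4% of all probes had, and a conventional ANOVA also called 0. Over all probes 4.49% were called. The estimates of the leading probes ran from -0.22 for Calb2 (interval -0.53 to 0.09) to 0.35 for Pvalb (interval -0.43 to 1.13), so that sizeable interactions are within the intervals of both genes. For Slc32a1 the interval was -0.12 to 0.13 and for Cck -0.04 to 0.21.

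Pvalb, the marker of fast-spiking cells, was the most variable member. Its lowest, median and highest levels were 2.42, 2.56 and 3.78 in the controls, 2.16, 2.56 and 3.15 under CUMS, 2.18, 2.73 and 2.95 after OVX, and 1.98, 2.67 and 3.73 after OVX with CUMS. The highest array was 3.48-fold above the lowest, against 1.20-fold for Cck and 1.29-fold for Sst. The residual SD between mice of a group was 0.488, higher than in 96.8% of the detected probes. The other Pvalb probe, on another spot, followed the same spread (Pearson r = 0.984 and Spearman rho = 0.966 over 24 arrays after subtracting group means, permutation p = 1e-05 for each, the smallest that 100000 resamples can give). Over the 2 such probe pairs the adjusted p was 2e-05. The 2 probes of Slc32a1 were less alike, at r = 0.426 and rho = 0.29, with adjusted permutation p of 0.0812 and 0.207. Against this spread the CUMS effect on Pvalb had an interval of -0.43 to 0.35 and the OVX effect one of -0.35 to 0.43. Changes of either sign within those intervals are compatible with the data.

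The level of Pvalb moved with that of oligodendrocyte markers. The mean log2 level of the 7 oligodendrocyte genes, which include Mbp and Mog and were all detected, ran from -0.24 to 0.63 in the controls, -0.34 to 0.13 under CUMS, -0.27 to 0.79 after OVX and -0.50 to 0.59 after OVX with CUMS, relative to its mean over all arrays. Control replicate 1 had the highest level of both among controls, at 3.78 for Pvalb and 0.63 for the list, and OVX+CUMS replicate 6 had the lowest of both in its group, at 1.98 and -0.50. After subtracting group means, r was 0.823 and rho 0.82 over 24 arrays (permutation p 4e-05 and 1e-05, adjusted p 0.0012 and 3e-04 over 30 relations). Without control replicate 1 and OVX+CUMS replicate 3, the 2 arrays farthest from the median of Pvalb, r was 0.751, and with the slide means of each group also subtracted it was 0.814.

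The same comparison was made for all 10 genes with the oligodendrocyte, striatum and excitatory neuron lists, a choice made after the spread of Pvalb had been seen. Of the 30 relations, 7 passed by r and 3 by rho. How many of all detected probes would pass with these lists was not counted, so the relations are not shown to be particular to the members. With the oligodendrocyte list Npy had r = 0.658 and rho = 0.648 (adjusted permutation p 0.0244 and 0.0372), Calb2 had r = -0.56 and rho = -0.53 (0.0244 and 0.078), and Gad1 had r = 0.531 and rho = 0.442 (0.0471 and 0.142). Without the 2 arrays farthest from the median of the gene, r was 0.506 for Npy, -0.528 for Calb2 and 0.346 for Gad1. The other 6 genes did not pass with that list. Of these Slc32a1 had r = 0.445 (adjusted permutation p 0.133) and Gad2 r = 0.283 (0.33), and Sst, Vip, Cck and Reln had r between -0.205 and 0.136. With the excitatory neuron list, Pvalb (r = 0.592), Npy (0.604) and Gad1 (0.631) passed by r, each with an adjusted permutation p of 0.0244. Their rho values were 0.619, 0.55 and 0.484, with adjusted permutation p of 0.0411, 0.0792 and 0.114, and without the 2 farthest arrays r was 0.621, 0.487 and 0.427. No member passed with the striatal list, where the highest r was 0.43, for Gad2. Of the 7 oligodendrocyte genes, 1 was called higher for OVX and 0 for CUMS, with median differences of 0.23 and -0.20. The part of these markers in the members' differences was not tested.

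**Figure D3:**
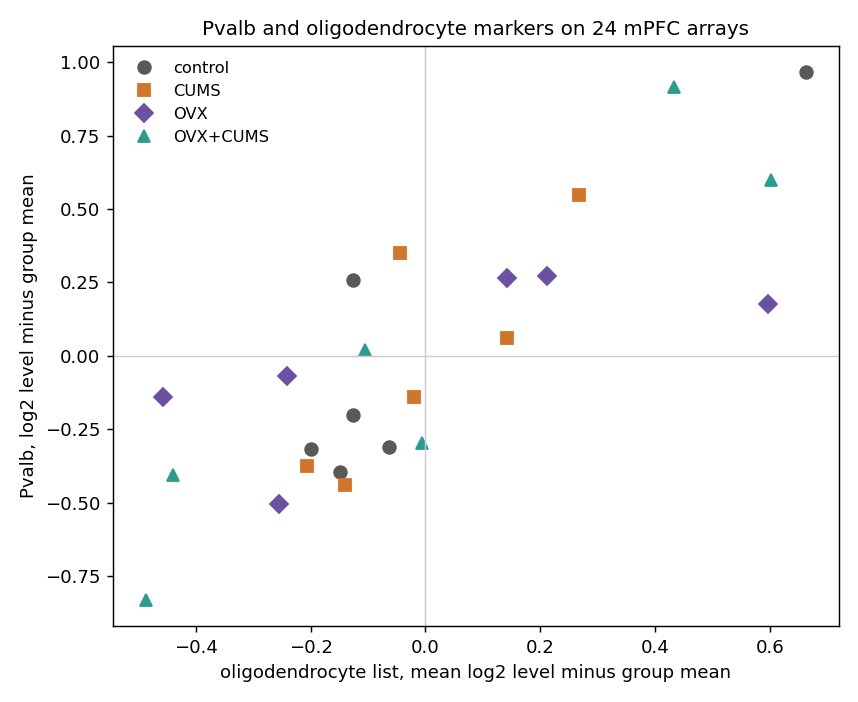
Level of Pvalb (log2, minus the group mean) against the mean level of 7 oligodendrocyte markers (log2, minus the group mean) on 24 mPFC arrays, 1 point per mouse, marked by group. The points rise together (r = 0.823), with control replicate 1 at the upper right and OVX+CUMS replicate 6 at the lower left.

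On slide 2, which holds 4 CUMS and 4 OVX arrays, the groups differ in both surgery and stress but share a slide. On this slide 4 member probes were lower on every CUMS array than on any OVX array, namely the leading probes of Gad1, Gad2, Slc32a1 and Sst, and this held for 6.45% of all detected probes. Sst was 5.67 to 5.77 in CUMS and 5.88 to 6.01 after OVX, a difference of -0.24 ± 0.05 (SE). Gad1 was 3.68 to 3.76 against 3.85 to 4.02, a difference of -0.21 ± 0.05. Gad2 was 3.28 to 3.43 against 3.49 to 3.53, and Slc32a1 was 5.72 to 5.86 against 5.91 to 6.04, a difference of -0.15 for each. The dimmer Slc32a1 probe overlapped between the groups, at -1.26 to -1.13 against -1.25 to -0.84.

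Cck was the 1 member probe that was higher on every CUMS array, at 8.51 to 8.63 against 8.41 to 8.45, as were 4.58% of all probes. None of the 12 was called in limma, and 0.0423% of all probes were. The adjusted p in limma was 0.0882 for Sst, 0.109 for Gad1, 0.151 for Gad2, 0.191 for Slc32a1 and 0.199 for Cck, and these 5 had an unadjusted p under 0.05, as had 16.5% of all probes. Without the detection filter Sst was called, with an adjusted p of 0.0301, and 10.8% of all probes were called in that setting. Pvalb (-0.22, interval -0.73 to 0.28), Npy (-0.15, interval -0.30 to 0.01), Vip, Calb2 and Reln overlapped between the groups. On the same slide the oligodendrocyte list had a median difference of -0.50 with 0 of 7 genes called, and its part in these differences was not tested.

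**Figure D4:**
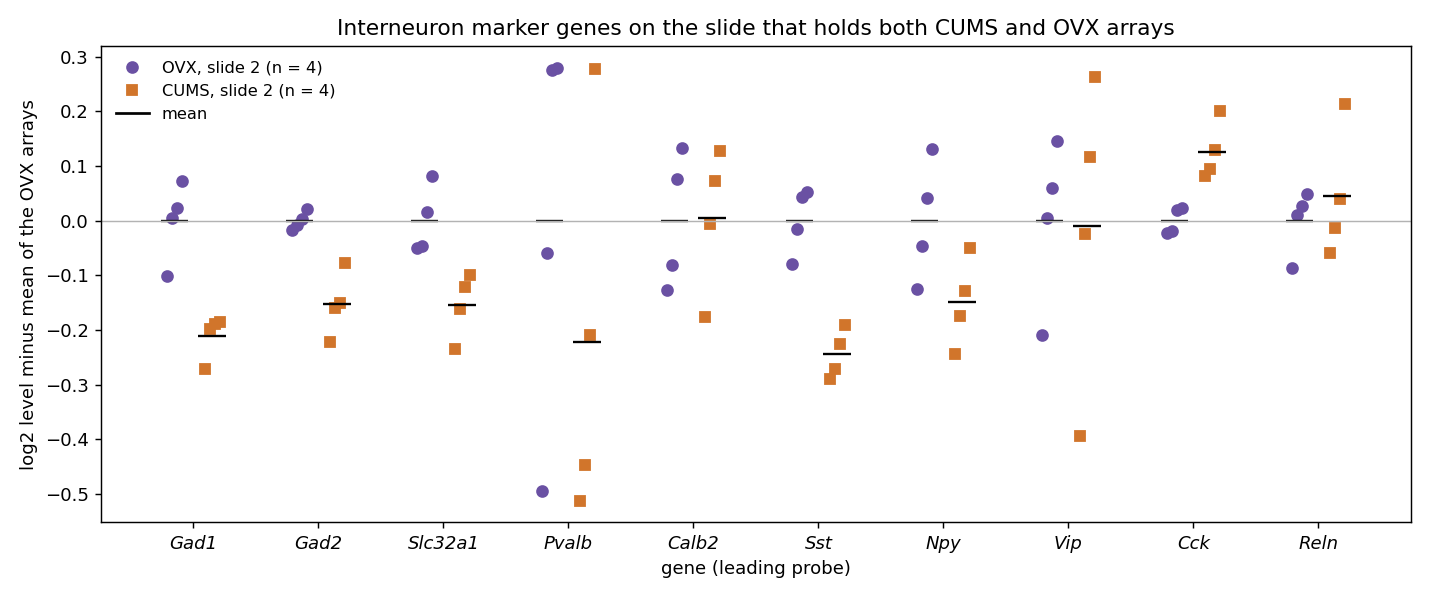
Levels of the 10 leading probes on slide 2 relative to the mean of the 4 OVX arrays (log2), for 4 OVX and 4 CUMS mice, with bars at the means. The CUMS points of Gad1, Gad2, Slc32a1 and Sst all lie under the OVX points and those of Cck above them.

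Of 6 pairs of members compared from mouse to mouse within groups, 3 passed by r and 2 by rho. For comparison, Gad1 had r = 0.631 with the excitatory neuron list. Over 24 arrays after subtracting group means, Gad1 and Slc32a1 had r = 0.637 and rho = 0.583, with permutation p of 0.00168 and 0.00596 (adjusted 0.0101 and 0.0354 over 6 pairs). Gad1 and Gad2 had r = 0.62 and rho = 0.552 (adjusted permutation p 0.0212 and 0.0354). Pvalb and Gad1 passed by r (0.558, adjusted permutation p 0.0248) and not by rho (0.434, adjusted 0.106). Without the 2 arrays farthest from the median of the first gene, r was 0.529, 0.644 and 0.668 for these pairs. After subtracting slide means as well, only Gad1 with Slc32a1 passed (r = 0.68, adjusted permutation p 0.00684). Sst and Npy, which share cells, had r = 0.392 and rho = 0.35 (adjusted permutation p 0.0771 and 0.165). Vip and Calb2 had r = -0.00685 and rho = -0.053 (0.974 and 0.817), and Vip and Cck had r = 0.316 and rho = 0.327 (adjusted permutation p 0.211 and 0.176).

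Ranked by r with Gad1 over 24 arrays after subtracting group means, the first 5 of 20523 genes were Nts at 0.83, Zfpm2 at 0.794, Zfp91 at 0.793, Cenpa at 0.791 and Serpini1 at 0.775. Nts makes the peptide neurotensin, Zfpm2 is a cofactor of GATA transcription factors, Cenpa is a histone of centromeres and Serpini1 is neuroserpin, a protease inhibitor of neurons. Among the members, Slc32a1 ranked 112, Gad2 142, Pvalb 358, Npy 929 and Sst 1911. These ranks are a description, since all genes share the same 24 arrays.

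The wider set of genes linked to GABA neurons or to the handling of GABA comprised 40 genes, of which 35 were detected. Not all of them are particular to interneurons. For OVX 10 of the 35 were called higher and 0 lower, beside 19.1% called higher and 11.7% lower over all probes. The median difference was 0.08, against 0.04 over all probes. By class, 3 of 12 transcription factors, 3 of 4 genes of GABA handling, 3 of 6 genes of channels and synapses and 1 of 13 peptides and subtype markers rose. The largest were Slc6a11, a GABA transporter of astrocytes, at 0.36 ± 0.10 (SE; adjusted p 0.00881), and Htr3a, a serotonin receptor channel of Vip and neurogliaform cells, at 0.30 ± 0.10 (0.03). They were followed by the transcription factors Dlx1 at 0.25 ± 0.05 (0.00111), Dlx6 at 0.21 ± 0.07 (0.0216) and Npas1 at 0.16 ± 0.04 (0.00675). For CUMS 0 were higher and 2 lower, beside 2.33% and 1.86% of all probes. These were Ndnf, a marker of neurogliaform cells, at -0.49 ± 0.12 (adjusted p 0.0329), and Tac1, the precursor of substance P, at -0.23 ± 0.06 (0.0454). Their mean signals were 164 for Ndnf and 8012 for Tac1. For the interaction and on slide 2, 0 of the 35 were called in limma, and 1 and 14 had an unadjusted p under 0.05, beside 23.4% and 16.5% of all probes. As for the members, surgery and slide cannot be told apart here. Of the other neuronal lists, 2 of 9 excitatory neuron genes were called higher for OVX with a median of 0.08, 2 of 8 pan-neuronal genes higher and 1 lower with a median of 0.05, and 1 of 8 striatal genes higher with a median of 0.15. Of the markers of other cells, 6 of 7 microglia genes were also called higher for OVX, with a median of 0.16, and 0 of 7 astrocyte and 0 of 5 endothelial genes were called. The mean level of the microglia list ran from -0.20 to -0.07 in the controls and from -0.19 to 0.12 under CUMS. It ran from 0.01 to 0.17 after OVX and from -0.07 to 0.23 after OVX with CUMS. Among CUMS mice alone, slide 2 less slide 1 had a median of 0.215 over this list. There 2 of 7 genes were called higher, beside 16.2% of all probes called in either direction. The part of the microglia list in the members' differences was not tested.

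The promoters of the members were read for sites of factors that answer to activity and to estrogen. RefSeq promoters of GRCm38.p6 were at hand for 9 of the 10 genes, with 2 for Pvalb, and the 250 bases before each gene start were searched on both strands. The cAMP response element TGACGTCA occurred in 1 of the 10 promoters, that of Sst, and in 1.55% of 32851 promoters of the table. It began 48 bases before the gene start. The estrogen response element GGTCANNNTGACC occurred in none of the 10 and in 0.0639% of all promoters. Each motif reads the same on both strands apart from the N positions, and the motifs did not overlap in the Sst promoter, which holds 1 match in all. The Sst promoter, at chr16:23890845-23891094 on the minus strand, is shown with the element in capitals because Sst had the largest difference among the members on slide 2.
Sst promoter: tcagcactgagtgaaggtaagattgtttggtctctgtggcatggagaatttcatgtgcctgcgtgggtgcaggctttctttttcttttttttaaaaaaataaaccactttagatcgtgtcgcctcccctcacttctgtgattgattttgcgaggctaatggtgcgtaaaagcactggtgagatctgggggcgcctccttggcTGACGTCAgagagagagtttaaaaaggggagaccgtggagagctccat
A match of letters is a description and not a site shown to be bound.

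In whole blood, where no GABAergic neurons are present, Gad1 and the brighter Pvalb probe passed the detection filter, with mean signals of 183 and 95.0 against 9180 and 4350 in mPFC, before any scaling between arrays. The dimmer Pvalb probe was well above background on 0 of 24 blood arrays. Gad2 and Vip were above background on 0 blood arrays, Npy, Calb2 and Reln on 1, Sst on 5, the brighter Slc32a1 probe on 2 and its dimmer probe on 24, and Cck on 20 with a mean signal of 20.5, under the minimum of 50.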

How the data were processed

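The members and the marker lists were chosen with earlier results of these data known. Spot intensity was deposited by the authors as Feature Extraction 10.7.3.1 output, background-subtracted and not scaled between arrays, and the authors' normalized table holds log2 intensity less the 75th percentile of each array. Groups came from the sample labels. Flagged spots were left out (98 to 191 per mPFC array), repeated spots were averaged on the log2 scale, and the 75th percentile over 55681 probes was subtracted. A probe was detected when well above background and not marked as an outlier on all 24 arrays, with a signal above 50 on at least 2. Precision depends on signal above background. The 75th percentile lay at 572 to 689 in mPFC and at 54.9 to 192 in blood, each mPFC array had 31556 to 38067 probes well above background, and 0 spots were saturated. The values computed here were within 0.001 of the authors' log2 values for 100% of 54909 probes with 1 spot, up to a constant per array.

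Effects were fitted in R 4.3.3 by limma 3.58.1, each main effect being averaged over the other factor. The p-values were two-sided and were adjusted by Benjamini-Hochberg over all detected probes. The fits were tested on simulated data. Within-slide comparisons were fitted on the arrays of that slide. Correlations used 100000 permutations within groups, in Python 3.11.15 (pandas 2.3.3, scipy 1.17.1). The text names all members and all their probes, the leading probe being the brightest detected one, the 5 called related genes with the largest change for OVX and for CUMS, and the 5 genes most like Gad1. Alternatives were normexp background correction, quantile normalization, a percentile over detected probes, no detection filter, the authors' values, the methods' two-way ANOVA, slide and replicate number as blocks, a mean over the probes of a gene and leaving out each array. The slide differences within CUMS and OVX mice, the count of groups that do not overlap and the correlations with marker lists were added after seeing the data. One oligodendrocyte marker is not reported here and was left out of its list. Comparisons in blood were not made here.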

Additional observations from a re-analysis of the deposited data

Results flagged for a closer look

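Of the 40 sets of 6 arrays (10 leading probes in 4 groups), 3 held an array that stood apart from the other 5 by Dixon's ratio, and chance marks about 1 in 20. Gad1 was 4.233 in control replicate 1, with the next control at 3.962. Without that array the CUMS effect on Gad1 was -0.123 and was not called. Cck was 8.609 in OVX replicate 6, with the next OVX array at 8.454. Without it the CUMS effect on Cck was 0.134 and was called. Reln was -2.818 in control replicate 6, with the next control at -2.537.

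The blood arrays entered no comparison, and 2 members passed the detection filter on them. The Gad1 probe had a mean processed signal of 183 and the brighter Pvalb probe one of 95.0. The dimmer Slc32a1 probe was above background on all 24 blood arrays, with a mean signal of 34.3 that was under the minimum of 50. The dimmer Pvalb probe and Gad2 were above background on 0 blood arrays.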

How the results depend on the processing

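The counts of called member probes were 1 for OVX, 1 for CUMS, 0 for the interaction and 0 for CUMS less OVX on slide 2. For OVX the count was 2 with normexp background correction, 0 with quantile normalization and 0 with slide as a block, and 1 to 2 with 1 array left out. Over all probes OVX was called for 9341 with normexp and 7813 with quantile normalization, in place of 8751. For CUMS it was 0 with quantile normalization, the percentile over detected probes, no detection filter and slide as a block, and 0 to 4 with 1 array left out, 4 being without CUMS replicate 2. Over all probes CUMS was called for 1221 with quantile normalization and 1210 with the percentile over detected probes. The counts over all probes with 1 array left out are not given here, so the 4 calls have no background beside them. On slide 2 it was 1 with no detection filter. Slide as a block left 0 calls among all 28358 probes for each effect, since the slides follow the groups, and the causes of the other changes were not tested. The labels do not say whether replicate numbers pair the mice. After subtracting group means, same-numbered arrays correlated at -0.021 to 0.148 on average, which cannot settle whether they are paired. With a replicate block the counts were 1 for OVX, 1 for CUMS and 0 for the interaction, beside 8794, 1297 and 618 over all probes. Over all probes the interaction was called for 1273 in the main fit, 716 by ANOVA and 1 with no detection filter, CUMS for 25 with no filter in place of 1189, and CUMS less OVX on slide 2 for 12, 192 with normexp and 6008 with no filter.

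Changes of sign were confined to values that were not called in either setting. With normexp, the OVX effect on Gad1 was 0.0397, the interactions of Gad1 and Vip were -0.0116 and -0.00156, and on slide 2 Reln was -0.0415 and Vip 0.0118. With quantile normalization the OVX effects on Cck, Gad2 and Sst were -0.0335, -0.0288 and -0.0461, the interaction of Npy was 0.00295 and the slide 2 value of Vip 0.000208. With the percentile over detected probes the same 3 OVX effects were -0.0226, -0.0271 and -0.028. With slide as a block the OVX effects on Calb2, Cck, Gad1 and Reln were -0.179, -0.0248, 0.159 and -0.011, the CUMS effects on Npy and Pvalb 0.00362 and 0.101, and the interactions of Calb2, Gad1, Reln, Slc32a1 and Vip 0.0093, -0.0553, 0.0703, -0.0521 and -0.0564. With the mean over the probes of a gene, the OVX effect on Pvalb was -0.0568 and the interaction of Slc32a1 -0.079.

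With 1 array left out, the OVX effect ranged from -0.00682 to 0.0225 for Cck, -0.00718 to 0.0201 for Gad2, -0.0529 to 0.135 for Pvalb and -0.0119 to 0.0279 for Sst, and the CUMS effect from -0.133 to 0.0547 for Pvalb. The interaction ranged from -0.0173 to 0.0853 for Gad1, -0.0769 to 0.0236 for Npy, -0.147 to 0.00828 for Reln, -0.0179 to 0.0272 for Slc32a1, -0.0632 to 0.011 for Sst and -0.0661 to 0.125 for Vip. On slide 2 the range was -0.0386 to 0.0641 for Calb2, -0.0111 to 0.0797 for Reln and -0.101 to 0.118 for Vip.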
